A study of Mus musculus with 31 samples.

Results

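Tnf encodes tumour necrosis factor, a cytokine that macrophages make within hours of meeting bacteria. It was followed here as a single gene across mouse macrophages of 2 genotypes and 2 stimuli. Every probe whose only gene symbol was Tnf was taken. There was 1 such probe, for 1 gene of the 10600 genes that had a probe of their own. The gene lies at chr17:35199367-35202007 on the minus strand of GRCm38.p6, in the class III region of the major histocompatibility complex. A second probe that was assigned to both Tnf and its neighbour Lta was not counted as Tnf.

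The cells were bone marrow macrophages of C57BL/6J mice aged 6 to 8 weeks, either wild-type or MyD88-deficient (MyD88-/-), grown for 8 days with L929-conditioned medium as a source of the growth factor CSF-1. They were exposed for 2 hours to 10 ng/mL of re-purified lipopolysaccharide (LPS) from E. coli O111, or to live E. coli in log phase at 1 bacterium per macrophage, or to medium only (mock). RNA of stimulated cells and RNA of mock cells of a mouse shared a 2-colour array, most often with a second array in which the dyes were swapped. Each of the 4 groups had 4 mice. Wild-type cells were measured on 8 arrays for LPS and 8 for E. coli, and MyD88-/- cells on 7 and 8. How MyD88 was deleted is not given in the sources used here. Mock cells carried the same genotype as the stimulated cells on their array.

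TNF is made as a membrane protein, is cut free by the protease ADAM17 and acts through the receptors TNFR1 and TNFR2. Toll-like receptor 4 recognises LPS and signals through the adaptor MyD88 and, on a separate arm, through the adaptor TRIF. Both arms lead to the NF-kB family of transcription factors, and the stability and translation of the Tnf message are controlled as well.

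The stretch of 250 bases before the start of Tnf is shown because the gene's message moved in every group, with the same stretch of Saa3, whose ratios were nearest to those of Tnf, and of Cxcl2, a near gene that was picked for display after its motifs had been counted. Sequences are from RefSeq on GRCm38.p6, at chr17:35202008-35202257 on the minus strand for Tnf, chr7:46715677-46715926 on the minus strand for Saa3 and chr5:90903649-90903898 on the plus strand for Cxcl2. Each reads 5′ to 3′ toward the gene, and capitals mark the TATA box TATAAA, the GC box GGGCGG, the core GGAA of Ets and NFAT sites and the NF-kB consensus, on either strand.
Tnf: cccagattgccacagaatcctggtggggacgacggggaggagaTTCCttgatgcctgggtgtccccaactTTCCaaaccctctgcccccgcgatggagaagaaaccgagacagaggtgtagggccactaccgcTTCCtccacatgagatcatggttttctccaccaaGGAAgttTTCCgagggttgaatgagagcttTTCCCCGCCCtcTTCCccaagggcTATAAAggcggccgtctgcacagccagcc
Saa3: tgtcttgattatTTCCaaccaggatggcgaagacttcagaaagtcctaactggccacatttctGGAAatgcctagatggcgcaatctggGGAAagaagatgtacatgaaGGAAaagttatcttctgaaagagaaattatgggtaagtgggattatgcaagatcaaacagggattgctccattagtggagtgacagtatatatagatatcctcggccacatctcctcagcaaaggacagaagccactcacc
Cxcl2: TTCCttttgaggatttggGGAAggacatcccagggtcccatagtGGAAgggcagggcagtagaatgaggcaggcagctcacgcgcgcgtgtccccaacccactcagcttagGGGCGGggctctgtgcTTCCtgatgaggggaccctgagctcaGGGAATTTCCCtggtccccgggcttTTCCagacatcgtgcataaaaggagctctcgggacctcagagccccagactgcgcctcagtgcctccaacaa
The Tnf stretch held 1 TATA box, from 29 to 24 bases before the start, and 1 GC box, from 49 to 44 bases before it. It held 7 GGAA cores and 2 matches to the C/EBP motif TTNNGNAA, each of which overlapped a GGAA core on the same strand. No match to the NF-kB consensus, to the AP-1 motif TGANTCA, to the cAMP response element TGACGTCA or to the Egr motif GCGGGGGCG lay in this window. Over all 32851 promoter stretches of that table, with both strands searched, 12.4% held the TATA box, 32.7% the GC box, 93.4% the GGAA core, 36.8% the C/EBP motif, 3.9% the NF-kB consensus, 6.75% the AP-1 motif, 1.55% the cAMP response element and 2.57% the Egr motif. The Saa3 stretch held 4 GGAA cores and 4 C/EBP matches. The Cxcl2 stretch held 2 NF-kB matches that overlap each other, 7 GGAA cores and 1 GC box. These matches describe letters and do not show that a factor bound.

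Values are the deposited log2 ratios, read as stimulated over mock, a direction that the labels do not state and that is called likely, since the array titles name the stimulus before mock. With the sign turned, each rise below would be a fall of the same size, a rank from the highest would be one from the lowest, and a ratio given as 2.87-fold or 4.75-fold smaller in MyD88-/- cells would be larger by that factor. The 31 arrays held 5564 to 10497 values each, with medians between -0.12 and 0.08, and their number limits the precision. Each ratio compares cells of 1 genotype, so Myd88's own probe does not check the deletion. Where a mouse had both arrays for a stimulus, their mean was used. MyD88-/- LPS mouse 4 has only its unswapped array. A value of 1 on this scale is a doubling, and the error of a fitted value is its standard error.

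Tnf message rose in every group and in all 16 mouse-level ratios. In wild-type cells after LPS the log2 ratios of the 4 mice were 5.25, 4.56, 5.84 and 4.81, a mean of 5.12 ± 0.56 (SD, n = 4). This is a 34.7-fold rise (95% interval 25.3 to 47.6), and it ranked 5 from the highest of 7325 probes. The wild-type mouse with the smallest response to LPS still stood above every MyD88-/- mouse given LPS, a separation that 3.28% of all probes had in this direction. In MyD88-/- cells after LPS the ratios were 3.20, 3.54, 3.76 and 3.87, a mean of 3.59 ± 0.29 (SD, n = 4). The rise in cells without MyD88 was thus 12.1-fold (8.80 to 16.6), rank 19 from the highest.

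In wild-type cells live bacteria gave the highest group mean of Tnf. In wild-type cells after E. coli the ratios of the 4 mice were 6.34, 6.78, 5.84 and 5.76, a mean of 6.18 ± 0.47 (SD, n = 4). The rise was 72.5-fold (52.8 to 99.5), rank 7 from the highest. In MyD88-/- cells after E. coli they were 3.40, 4.21, 3.88 and 4.24, a mean of 3.93 ± 0.39 (SD, n = 4), which is a 15.3-fold rise (11.1 to 20.9), rank 14. All 4 MyD88-/- mice lay below all 4 wild-type mice given the same bacteria, a separation that 4.3% of all probes had in this direction.

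**Figure D1:**
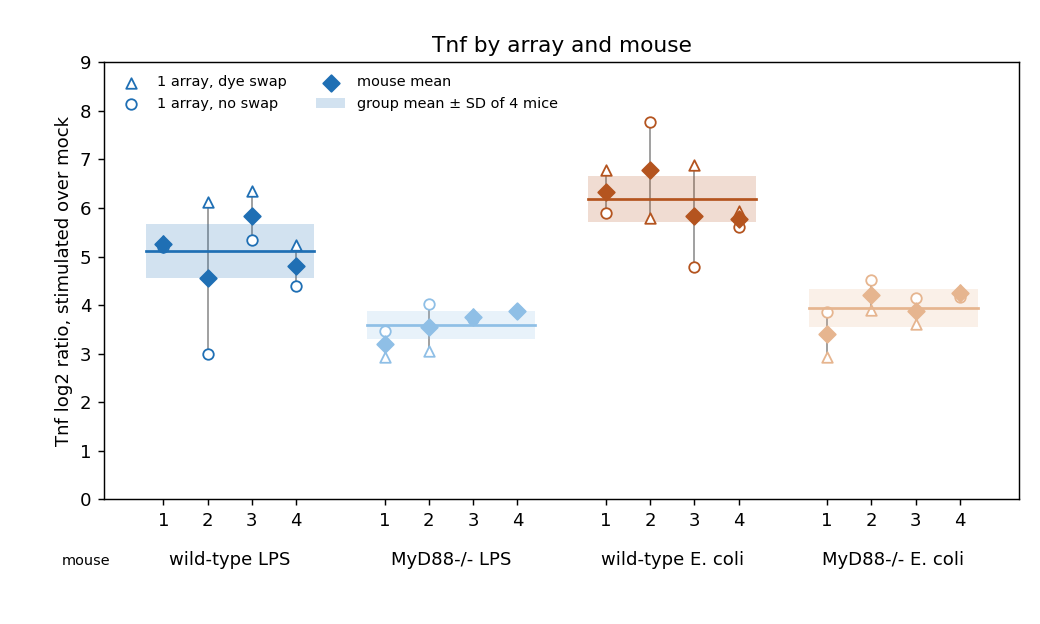
Log2 ratio of Tnf (vertical axis, stimulated over mock) for each mouse of the 4 groups, with open triangles for dye-swapped arrays, open circles for unswapped arrays, filled diamonds for mouse means, and a line and band for the group mean ± SD of 4 mice. Wild-type mice lie between 4.56 and 6.78 and MyD88-/- mice between 3.20 and 4.24, and the 2 arrays of wild-type LPS mouse 2 stand farthest apart.

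Each response passed limma's test across 7325 probes with Benjamini-Hochberg adjustment, with a standard error of 0.21. The adjusted p was 8.48e-10 for wild-type LPS, 3.57e-08 for MyD88-/- LPS, 7.37e-11 for wild-type E. coli, and in MyD88-/- E. coli it was 1.62e-08. By p, Tnf ranked 2, 8, 1 and 5 among the probes tested. At an adjusted p under 0.05 the share of all probes called in either direction was 17.0%, 9.98%, 21.2% and 10.8% in the same order. Within single mice Tnf stood between rank 4 and rank 11 from the top in wild-type LPS, 10 and 41 in MyD88-/- LPS, 3 and 11 in wild-type E. coli, and 16 and 22 in MyD88-/- E. coli. Rank 41 was that of MyD88-/- LPS mouse 4, although its ratio (3.87) was the highest of its group. It comes from 1 unswapped array with 6943 values and not from a mean of 2 arrays. The other mice of that group ranked from 10 to 33. In these bulk samples, fewer responding cells and less Tnf message per cell cannot be told apart.

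The groups fell in the order wild-type E. coli, wild-type LPS, MyD88-/- E. coli and MyD88-/- LPS. The wild-type groups overlapped, since the lowest wild-type E. coli mouse (5.76) lay under the highest wild-type LPS mouse (5.84). The MyD88-/- groups overlapped too. The lowest wild-type LPS mouse stood at 4.56 and the highest MyD88-/- E. coli mouse at 4.24. These groups differ in both genotype and stimulus and were not tested against each other. The share of all probes that stand apart in this way was not counted.

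The genotype comparison asks how much of the Tnf response remains without MyD88. For LPS the ratio was lower in MyD88-/- cells by a log2 difference of -1.52 ± 0.30 (95% interval -2.17 to -0.88), so that the Tnf ratio was 34.8% (22.3% to 54.5%) of the wild-type one, or 2.87-fold smaller. The groups did not overlap, as 3.28% of all probes did not in this direction. The 2-sided exact permutation test over the 4 against 4 mice gave p = 0.0286, the smallest that this design allows, and 0.0571 after adjustment over 4 such comparisons. Limma's adjusted p over all probes was 0.05004, just outside the threshold, with an unadjusted p of 0.00015. At that threshold 0.287% of all probes were called for this difference, and 0.218% of all probes were called lower. Tnf ranked 22 by p and 82 from the lowest difference.

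The LPS difference crossed the threshold with small changes of the samples or probes used. Adjusted p from limma was 0.0263 over probes with values in all 4 mice of each group, 0.0322 without wild-type LPS mouse 2, 0.034 without wild-type E. coli mouse 2 and 0.0452 without MyD88-/- E. coli mouse 1. It was as high as 0.168 when another mouse was left out. With arrays scaled to a common spread the difference was -0.93, with an adjusted p of 0.466.

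For live E. coli the genotype difference was -2.25 ± 0.30 (95% interval -2.89 to -1.60), and it passed limma's test with an adjusted p of 0.00105. Here the Tnf ratio of MyD88-/- cells was 21.1% (13.5% to 32.9%) of the wild-type one, or 4.75-fold smaller. Of all probes 0.751% were called for this difference and 0.546% of all probes were called lower. Tnf ranked 15 by p and 27 from the lowest difference. The mice of the genotypes did not overlap, as 4.3% of all probes did not in this direction. The exact permutation test gave p = 0.0286, and 0.0571 after adjustment over 4 comparisons. The call was kept when any 1 mouse was left out, with differences from -2.39 to -2.05. Since each array gives only a ratio, a difference between the genotypes in Tnf of mock cells was not tested.

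**Figure D2:**
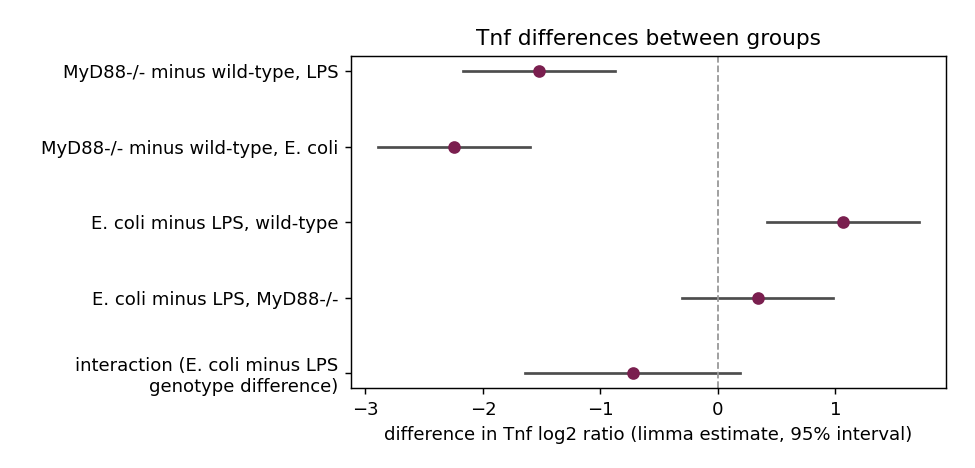
Differences in the Tnf log2 ratio between groups (horizontal axis) as limma estimates (points) with 95% intervals (lines), and a dashed line at 0. Both genotype differences and the wild-type stimulus difference have intervals that leave out 0, while the intervals of the MyD88-/- stimulus difference and of the interaction hold it.

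The comparison of stimuli asks whether live bacteria and purified LPS gave different Tnf responses. In wild-type cells the ratio was higher after E. coli by 1.06 ± 0.30 (95% interval 0.42 to 1.71), a 2.09-fold larger ratio. This did not pass limma's test over all probes (adjusted p 0.993, unadjusted p 0.00312), in which 0.0% of probes were called and 297 had an unadjusted p under 0.05. The exact permutation test gave p = 0.0571, and 0.0762 after adjustment over 4 comparisons. In MyD88-/- cells the difference was 0.34 ± 0.30 (-0.31 to 0.98), with an exact permutation p of 0.229 and an adjusted p of 1.0 from limma, where again 0.0% of probes were called and 177 had an unadjusted p under 0.05. That interval still allows a difference of up to 0.98, close to the one estimated in wild-type cells.

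The interaction, which is the genotype difference for E. coli minus that for LPS, was -0.73 ± 0.43 (95% interval -1.64 to 0.19). It did not pass limma's test (unadjusted p 0.111, adjusted p 1.0), in which 0.0% of probes were called and 219 had an unadjusted p under 0.05. The larger genotype difference after E. coli than after LPS was therefore not shown to differ between the stimuli.

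The dye orientations differed at the Tnf probe. Over the 15 pairs the swapped and unswapped arrays differed by 0.09 to 3.13 in size, with a median of 0.83, where the median over all probes lay between 0.39 and 0.69 in the same pairs. The largest gap was in wild-type LPS mouse 2, with 6.12 swapped and 2.99 unswapped. In wild-type cells the swapped array was higher in 7 of 8 pairs, by a mean of 0.81 ± 1.49 (SD). In MyD88-/- cells it was lower in 5 of 7 pairs, by a mean of -0.48 ± 0.44 (SD). The wild-type mean was 0.47 over the other 7 pairs when wild-type LPS mouse 2 was left out. These means were set side by side after the values had been seen, as a description.

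The size of the Tnf genotype difference was not the same on each orientation. On swapped arrays alone it was -2.49 for LPS and -2.66 for E. coli, with adjusted p of 0.0105 and 9.43e-04 from limma. On unswapped arrays alone it was -0.71 and -1.84, with adjusted p of 0.618 and 0.216. The mean of both orientations was used throughout, and both orientations are equally many in each group except MyD88-/- LPS, where mouse 4 has only its unswapped array. A fit of single arrays used a dye term and the mouse as a random block. It gave -1.54 ± 0.43 for LPS (adjusted p 0.106 from limma) and -2.25 ± 0.41 for E. coli (0.00143). Where both orientations are equally many, a dye term leaves the group mean as it was. The closeness to the values above was therefore set by the design. It does not test whether the dye gap, which ran opposite ways in the genotypes, affects the difference.

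**Figure D3:**
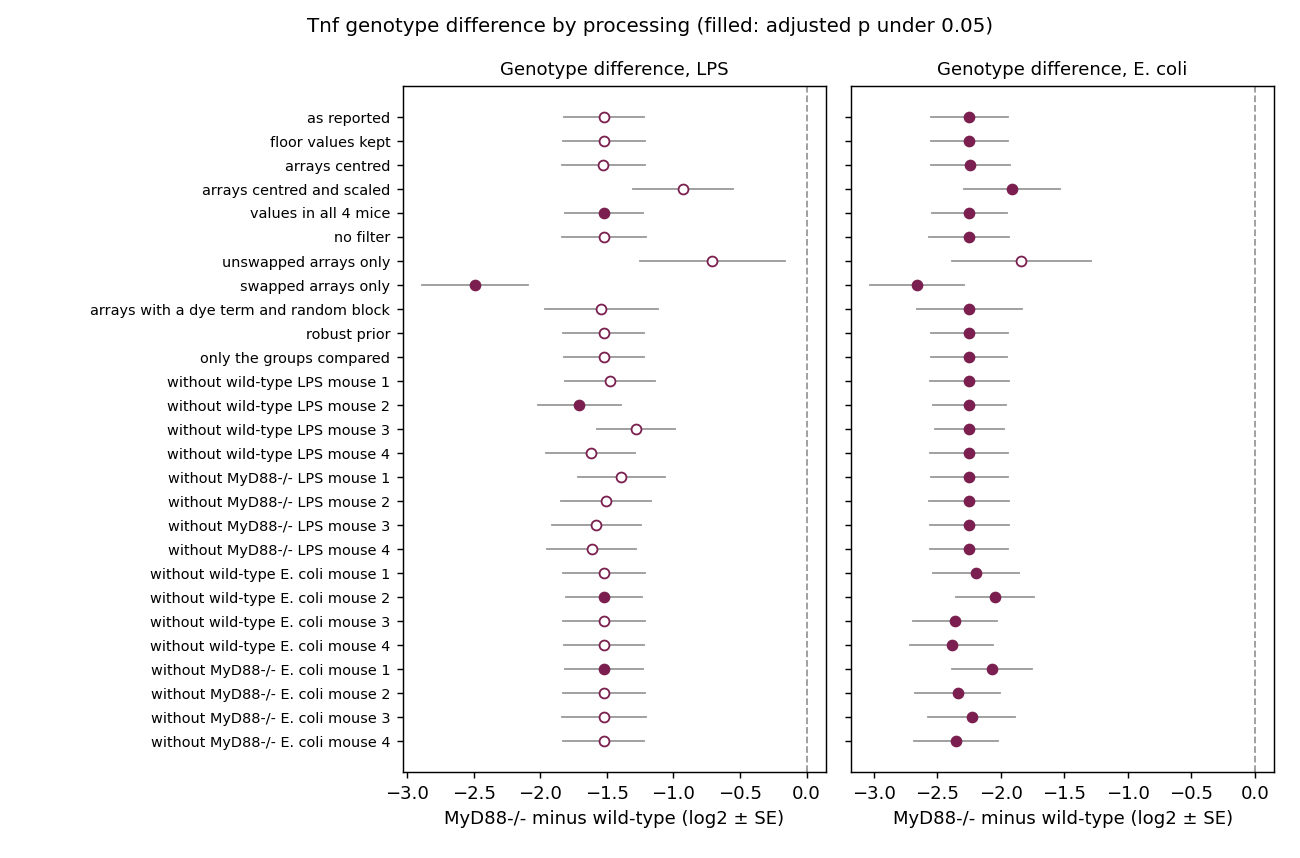
The Tnf genotype difference (horizontal axis, MyD88-/- minus wild-type log2 ratio ± SE) for LPS (left) and E. coli (right) under each processing and with each mouse left out, with filled points where limma's adjusted p was under 0.05. Every estimate is below 0, from -2.49 to -0.71 for LPS and from -2.66 to -1.84 for E. coli, and the extremes are the arrays of 1 dye orientation.

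The probe assigned to both Tnf and Lta showed no such rise. It had a value on 20 of the arrays and stood at the deposited floor on 1 more. Its log2 ratios ran from -1.28 to 1.67 with a median of -0.10. Lta, which encodes lymphotoxin alpha, had no other probe. The annotation does not say which of these messages that probe measures.

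Likeness to Tnf was measured as the root mean square difference over the 16 mouse-level ratios, among 4481 genes with a value in all of them, as a description. The nearest were Saa3 (0.978), Il1a (0.982), Ccl5 (0.985), Cxcl1 (1.13), Gpr84 (1.16) and Cxcl2 (1.17), against a median gene at 4.91. Saa3, an acute-phase serum amyloid, had group mean log2 ratios of 4.33 and 2.96 after LPS, and of 5.08 and 2.87 after E. coli, wild-type before MyD88-/-. Il1a, the cytokine interleukin 1 alpha, had 5.50, 3.30, 6.66 and 2.94 in the same order. Both stood highest in wild-type E. coli, as Tnf did. Choosing genes by likeness over the same 16 ratios favours such agreement, also for the near genes below.

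Of the chemokines near Tnf, Cxcl2 was the one called in both genotype differences. Cxcl2, a chemokine for neutrophils, had means of 4.88, 2.38, 5.68 and 2.29, and its genotype differences were called for LPS (-2.51, adjusted p 7.78e-04 from limma) and E. coli (-3.39, 1.45e-05). The Cxcl2 call for LPS was lost with arrays scaled to a common spread (-2.03, adjusted p 0.0603 from limma). It was also lost on swapped arrays (-2.38, 0.0569) and with only the groups compared (-2.51, 0.0663). Ccl5, a chemokine for T cells and monocytes, had means of 3.93, 4.21, 5.05 and 4.24, and neither genotype difference was called (0.28 and -0.80). Cxcl1, a second neutrophil chemokine, had differences of -0.997 and -2.12 that were not called. Gpr84, a receptor for medium-chain fatty acids, had 0.55 and -0.66, also not called.

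After each gene was centred on its own mean, the nearest to Tnf were Saa3 (0.394), Plaur (0.462), Plk2 (0.545), Prpf8 (0.573), Acadl (0.597) and Mmp13 (0.613), against a median of 1.17. Saa3 was thus nearest by both measures. Its genotype difference was -1.37 for LPS (adjusted p 0.0664 from limma) and -2.21 for E. coli (8.06e-04), on the same sides of the threshold as Tnf's. Since the genes were picked for likeness to Tnf over these same ratios, like differences are favoured by the choice and are only a description. Plaur, the urokinase receptor, had a response of 1.84 in wild-type LPS and 2.34 in wild-type E. coli, and 0.26 and 0.27 in MyD88-/- cells, where it was not called. Tnf was called in both genotypes. The other 4 were Plk2, a kinase, Prpf8, a core protein of the spliceosome, Acadl, an enzyme of fatty acid oxidation, and Mmp13, a collagenase. Their genotype differences for E. coli were -2.01, -2.75, -1.10 and -2.48, and that of Acadl was not called. For LPS, where Tnf was not called, those of Plaur (-1.58, adjusted p 6.94e-04 from limma), Plk2 (-1.67, 0.00977) and Prpf8 (-2.29, 7.55e-05) were called, and those of Acadl (-1.37, 0.0673) and Mmp13 (-0.98, 0.551) were not. The E. coli call of Mmp13 was lost when wild-type mouse 1 (-2.21) or wild-type mouse 2 (-2.34) given bacteria was left out, and likewise for MyD88-/- mouse 1 (-2.17) and mouse 3 (-2.32). On swapped arrays Plk2 lost its calls for LPS (-1.97, adjusted p 0.202 from limma) and E. coli (-1.96, 0.0571). Both were also lost with only the groups compared (-1.67, 0.051 and -2.01, 0.0524). Without wild-type LPS mouse 2 the LPS differences of Saa3 (-1.56, 0.0345) and Acadl (-1.59, 0.0322) were called.

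**Figure D4:**
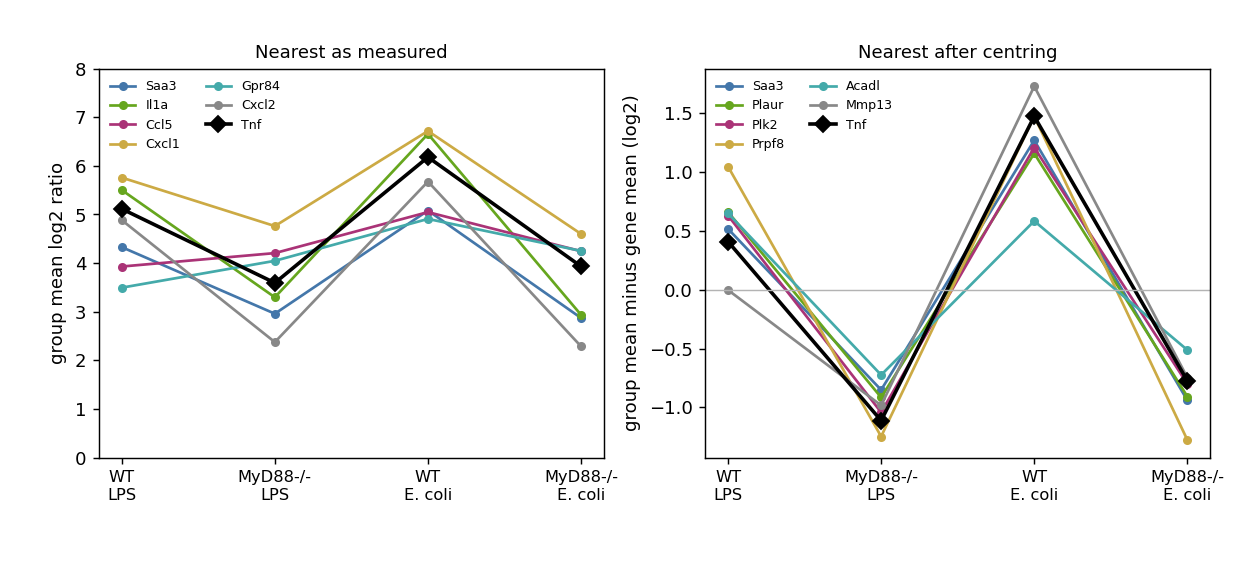
Group means of Tnf (black) and of the 6 nearest genes as log2 ratios (left) and after each gene's mean was taken off (right), in the 4 groups along the horizontal axis. In the left panel Saa3, Il1a, Cxcl1 and Cxcl2 are lower in MyD88-/- cells for both stimuli, as Tnf is, while Ccl5 and Gpr84 are so only after E. coli.

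Of the genes that act in the release of TNF, 6 of 9 had a probe and 4 could be tested. Adam17, the protease that sheds TNF from the membrane, rose in all 4 groups, by 0.62 ± 0.14, 0.82 ± 0.14, 0.73 ± 0.14 and 0.78 ± 0.14 for LPS in wild-type and in MyD88-/- cells and then for E. coli in wild-type and in MyD88-/- cells, an order that is kept below. Its genotype differences were 0.19 and 0.05 and were not called. Furin, a protease that activates ADAM17, rose in wild-type E. coli (0.63 ± 0.15) and stood at -0.11, -0.10 and 0.05 in the other groups. Its genotype difference for E. coli (-0.59, adjusted p 0.23 from limma) and its stimulus difference in wild-type cells (0.74, 0.983) were not called. Counted higher were thus 1, 1, 2 and 1 of the 4, where 7.99%, 5.28%, 9.43% and 6.35% of all probes were higher. None was lower, where 4.42% to 11.8% of all probes were. The median of the 4 was -0.02, 0.53, 0.05 and 0.46, against -0.05, -0.05, -0.06 and -0.05 over all probes. The 0.53 of MyD88-/- LPS depends on Adam10, which was not called. Its mice there stood at 0.46, -0.48, -0.31 and 4.00, the last from mouse 4 with its single unswapped array.

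Of the receptors, 1 rose in every group and the other fell in 1 of them. Tnfrsf1b, which encodes TNFR2, rose in every group, by 1.40 ± 0.18, 1.68 ± 0.18, 1.86 ± 0.18 and 1.83 ± 0.18. Its mouse values in wild-type LPS were 1.53, 1.28, 1.28 and 1.5, and those in MyD88-/- LPS were 1.18, 2.00, 1.5 and 2.02. The genotypes overlapped, and the differences of 0.28 for LPS and -0.02 for E. coli were not called. Tnfrsf1a, which encodes TNFR1, fell in wild-type LPS by 0.65 ± 0.16 (adjusted p 0.0107 from limma), where 9.04% of all probes were lower. All 4 of those mice were below 0, at -0.62, -0.68, -0.51 and -0.77. Tnfrsf1a was not called in the other groups, with -0.22, -0.37 and 0.02, nor in the genotype differences of 0.42 and 0.39.

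Of the 32 genes of TNF receptor signalling, 24 had a probe and 20 could be tested. In wild-type LPS 7 were higher and none lower, in MyD88-/- LPS 7 and none, in wild-type E. coli 8 and 2, and in MyD88-/- E. coli 8 and none. Over all probes 7.99%, 5.28%, 9.43% and 6.35% were higher and 9.04%, 4.7%, 11.8% and 4.42% lower. The list's medians were 0.15, 0.35, 0.03 and 0.24, against -0.05, -0.05, -0.06 and -0.05 over all probes. Those that rose in all 4 groups were Traf1, Birc2, Birc3, Cflar, Tab2, Tnfaip3 and Tnip1. Tnfaip3, which encodes the ubiquitin-editing inhibitor A20, had the highest responses of the list in wild-type cells, 4.27 ± 0.48 and 4.92 ± 0.48, with 3.68 ± 0.48 and 3.23 ± 0.48 in MyD88-/- cells. Its genotype differences of -0.59 and -1.68 were not called, and its mice in wild-type E. coli ranged from 2.46 to 6.51.

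Traf1, an adaptor bound to TNFR2, rose by 2.96 ± 0.51, 3.93 ± 0.51, 3.92 ± 0.51 and 3.68 ± 0.51, with genotype differences of 0.97 and -0.23 that were not called. Cflar, which encodes the caspase-8 inhibitor cFLIP, rose by 2.83 ± 0.14, 1.99 ± 0.14, 2.87 ± 0.14 and 2.03 ± 0.14. Its genotype differences were -0.84 (adjusted p 0.112 from limma) and -0.85 (0.063), and neither was called. Birc2 and Birc3, which encode the ubiquitin ligases cIAP1 and cIAP2, rose by 1.70 to 2.14 and by 1.70 to 3.24. The Birc3 call in MyD88-/- E. coli was lost without mouse 1 (1.43, adjusted p 0.0669) or mouse 3 (1.54, 0.0671) of that group. The Tab2 call in MyD88-/- LPS was lost without mouse 3 (0.55, 0.0697) or mouse 4 (0.59, 0.0578).

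Single calls of this list were Map3k5 in MyD88-/- E. coli (0.90), Ikbkb (0.85), Tab3 (-0.74) and Ikbkg (-0.59) in wild-type E. coli. Map3k5 encodes the kinase ASK1, Ikbkb and Ikbkg parts of the IkB kinase, and Tab3 a partner of the kinase TAK1. The Ikbkg call was lost without mouse 1 (-0.41) or mouse 4 (-0.49) of that group. The Map3k5 call was lost without mouse 1 (0.95), 2 (0.74) or 3 (0.72) of its group, and without MyD88-/- LPS mouse 3 or wild-type E. coli mouse 4 (0.90 in both cases). Traf2, Traf5, Map3k14 and Tab1 had too few values to be tested. No member was called in a genotype difference. With 0.287% of all probes called for LPS and 0.751% for E. coli, this is near the background.

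Of the 23 genes that act on the stability or translation of the Tnf message, 16 had a probe and 12 could be tested. Higher were 2, 3, 2 and 3, where 7.99%, 5.28%, 9.43% and 6.35% of all probes were, and none was lower, where 4.42% to 11.8% were. The list's medians were -0.01, 0.22, 0.06 and 0.26. Zfp36, which encodes tristetraprolin, a protein that binds the Tnf message and speeds its decay, rose by 0.88 ± 0.17, 0.76 ± 0.17, 1.56 ± 0.17 and 0.69 ± 0.17. In wild-type E. coli its mice were at 1.47, 1.94, 1.34 and 1.47 and in MyD88-/- E. coli at 0.88, 1.29, 0.46 and 0.13. These groups did not overlap, as 4.3% of all probes did not in this direction, but the difference of -0.87 was not called (adjusted p 0.117 from limma).

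Mapkapk2, which encodes the kinase MK2 that acts on tristetraprolin, rose by 1.38 ± 0.25, 1.10 ± 0.25, 1.03 ± 0.25 and 1.34 ± 0.25. Mouse 1 of wild-type E. coli stood at -0.46 while the others were at 1.23 to 1.82. Ptbp1, an RNA-binding protein, was called in MyD88-/- cells (0.56 and 0.50), while it stood at 0.14 and 0.19 in wild-type cells. The Zfp36 call was lost in MyD88-/- LPS without mouse 1 (0.63) and in MyD88-/- E. coli without mouse 1 (0.62) or 2 (0.49). The Mapkapk2 call was lost in MyD88-/- LPS without mouse 3 (1.03) and in wild-type E. coli without mouse 2 (0.76) or 3 (0.86). The Ptbp1 call was lost in MyD88-/- LPS without mouse 4 (0.48) and in MyD88-/- E. coli without mouse 2 (0.43) or 4 (0.45). Elavl1, Dusp1, Map3k8 and Zfp36l2 had too few values to be tested. No member was called in a genotype difference, which is near the background of 0.287% of all probes for LPS and 0.751% for E. coli.

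Of the 36 transcription factors, inhibitors and cofactors that have been tied to the Tnf promoter, 31 had a probe and 27 could be tested. Over all probes 7.99%, 5.28%, 9.43% and 6.35% were higher. In wild-type LPS 11 of the list were higher and 2 lower, in MyD88-/- LPS 10 and 3, in wild-type E. coli 13 and 2, and in MyD88-/- E. coli 11 and 4. The share of all probes called lower was 9.04%, 4.7%, 11.8% and 4.42%. The list's medians were 0.38, 0.45, 0.62 and 0.15. Of the NF-kB subunits, which form dimers, Rela rose by 0.87 to 0.98, Relb by 2.31 to 3.36 and Nfkb2 by 2.46 to 2.77, and the inhibitors and partners Nfkbib, Nfkbie and Bcl3 by 1.80 to 3.15. Rel, the c-Rel subunit, was not called, with values from -0.24 to -0.15, and Nfkbia and Nfkbiz had too few values to be tested.

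Members of other families did not move one way. Irf1, an interferon regulatory factor, rose by 3.61, 4.33, 3.95 and 4.23, and Irf8, needed in the myeloid lineage, fell by 1.33, 1.51, 0.75 and 1.40. Jun, a subunit of AP-1, fell by 2.57, 1.72, 2.11 and 1.99, each ± 0.35, while Junb, a subunit of the same factor, rose by 2.03, 1.34, 2.36 and 1.30, each ± 0.13. Ets2 rose by 1.57 to 2.12, but in wild-type E. coli mouse 1 stood at -0.34 and the others at 2.11 to 3.62. The Ets2 call in wild-type E. coli was lost on swapped arrays and with only that group fitted. Its values there were 1.38 to 2.02, with adjusted p up to 0.126 from limma. Egr1 rose in wild-type cells (0.88 and 1.25) and was not called in MyD88-/- cells (0.39 and 0.15), but its genotype differences of -0.49 and -1.11 were not called. Cebpb was called in wild-type E. coli (1.42), Fos in MyD88-/- E. coli (-1.28), Ets1 in MyD88-/- LPS (1.21), Spi1 in MyD88-/- E. coli (0.65) and Irf5 in wild-type and MyD88-/- E. coli (0.62 and 0.68). Cebpb was not called in wild-type LPS (0.28), where mouse 2 stood at -2.23 and the others at 0.81 to 1.44. In MyD88-/- cells it was not called either, although all its mice were above 0 (0.24 to 1.17).

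With fewer mice of their own group some of these calls were lost. The Cebpb call was lost without mouse 1, 2 or 3 (1.32, 1.44 and 1.41), that of Fos without mouse 3 or 4 (-1.21 and -0.96), that of Spi1 without mouse 2 or 4 (0.66 and 0.43) and that of Ets1 without mouse 1, 3 or 4 (1.16, 0.97 and 1.10). Irf5 lost its wild-type call without mouse 2, 3 or 4 (0.44, 0.62 and 0.62) and its MyD88-/- call without any 1 of the 4 mice (0.62 to 0.72). Ets2 lost its MyD88-/- LPS call without any 1 of the 4 mice (1.44 to 1.67) and its MyD88-/- E. coli call without mouse 2 (1.67). Irf8 lost its wild-type E. coli call without mouse 2, 3 or 4 (-0.66, -0.72 and -0.68).

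Cebpd and Junb were the members of these lists that were called in a genotype difference. Cebpd, which encodes C/EBP delta, had mouse values of 1.06, 1.49, 1.30 and 1.31 in wild-type LPS and -1.29, -0.99, -1.02 and -1.42 in MyD88-/- LPS. In wild-type E. coli they were 2.24, 1.96, 1.77 and 1.17, and in MyD88-/- E. coli -0.98, -1.66, -0.70 and -1.53. It rose in wild-type cells and fell in MyD88-/- cells, unlike Tnf, which rose in both. The genotype differences of Cebpd were -2.47 ± 0.25 (adjusted p 2.12e-04 from limma) and -3.00 ± 0.25 (1.45e-05). That of Junb was called for E. coli (-1.06 ± 0.18, 0.00745) and not for LPS (-0.70, 0.17). The Junb call was lost with arrays scaled to a common spread, on unswapped arrays and with only the groups compared. Its differences there were -1.06 to -0.81, with adjusted p up to 0.148 from limma. The Cebpd call for LPS was lost on swapped arrays (-2.11, 0.0772). As reported, 1 of 27 was called for LPS and 2 of 27 for E. coli, all lower, where 0.218% and 0.546% of all probes were lower. The lists were chosen with earlier results of these data known, which can favour such counts. Here and in the other lists, a count above the share of all probes is only a description.

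**Figure D5:**
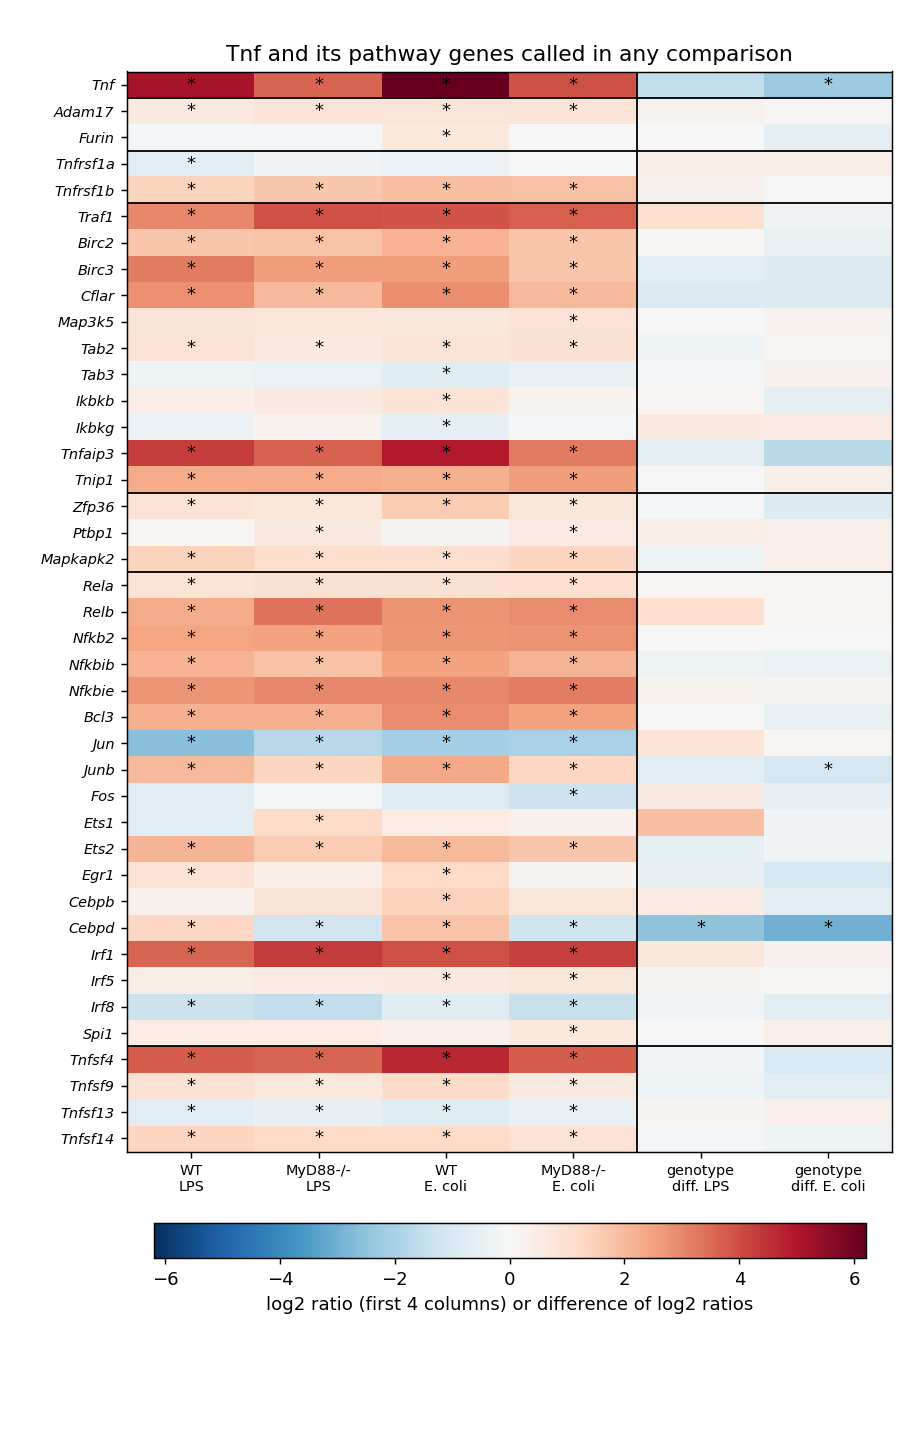
Log2 ratios of Tnf and of the pathway genes called in at least 1 comparison (colour scale, rows in the order of release, receptors, receptor signalling, message control, transcription factors and family ligands) in the 4 groups, with the genotype differences in the last 2 columns and an asterisk where limma's adjusted p was under 0.05. Asterisks in the last 2 columns stand at Tnf (E. coli), Junb (E. coli) and Cebpd (both).

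Of the 17 other ligands of the TNF superfamily, 14 had a probe and 7 could be tested. In each of the 4 groups Tnfsf4, Tnfsf9 and Tnfsf14 were higher and Tnfsf13 was lower, which makes 3 and 1 of the 7, where 5.28% to 9.43% of all probes were higher and 4.42% to 11.8% lower. The medians were -0.08, 0.23, 0.35 and 0.34. Tnfsf4, which encodes OX40 ligand, rose by 3.76 ± 0.60, 3.6 ± 0.60, 4.67 ± 0.60 and 3.74 ± 0.60. Its genotype differences were -0.16 and -0.94 and were not called, although its standard error was larger than that of Tnf and its mice in MyD88-/- E. coli ran from 1.73 to 5.57. Tnfsf14, which encodes LIGHT, rose by 1.35, 1.23, 1.21 and 0.90, and Tnfsf9, which encodes 4-1BB ligand, by 0.88, 0.63, 1.21 and 0.56. Tnfsf13, which encodes APRIL, fell by 0.70, 0.52, 0.77 and 0.45. In MyD88-/- E. coli the Tnfsf9 call was lost without mouse 3 (0.47), the Tnfsf13 call without mouse 1, 2 or 3 (-0.44, -0.44 and -0.42) and the Tnfsf14 call without mouse 2 or 3 (0.83 and 0.81).

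Few neighbours of Tnf on chromosome 17 could be measured. Of 27 genes of the class III region 11 had a probe and 7 could be tested, and none was called in any of the 9 comparisons. With 5.28% to 9.43% of all probes higher, 0 of 7 is near the background. Ltb, which encodes lymphotoxin beta and lies next to Tnf, had responses of -0.08, 0.07, 0.00 and -0.14 with standard errors of 0.40 to 0.46. Aif1, a macrophage protein, had 0.03, 0.12, -0.17 and -0.07. The list's medians were -0.08, 0.07, -0.16 and -0.14.

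Markers of the labelled cell type and of other cells were read in the same fit. Of 9 macrophage markers tested, Cd68 was lower in wild-type LPS (-0.50), Fcgr1 in wild-type LPS, MyD88-/- LPS and wild-type E. coli (-0.47, -0.47 and -0.58) and Lgals3 in both MyD88-/- groups (-0.39 and -0.38), while Spi1 was higher in MyD88-/- E. coli (0.65). Csf1r and Adgre1 were not called. No tested marker of T and NK cells (1 of 13), mast cells (5 of 10) or neutrophils (3 of 10) was called. In the 4 responses 5.28% to 9.43% of all probes were higher and 4.42% to 11.8% lower, so no call among so few is near the background. Of the B cell markers (4 of 8) Cd79a was lower in MyD88-/- LPS (-1.05) and Ighm higher in MyD88-/- E. coli (0.75), and of the dendritic cell markers (2 of 8) Zbtb46 was higher in wild-type LPS (0.70). None was called in a genotype difference, where 0.287% of all probes were called for LPS and 0.751% for E. coli, so this too is near the background. A ratio gives no level of a marker, so the purity of the cultures was not tested.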

How the data were processed

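RNA of 4 groups of 4 mice was measured on 31 arrays. Per the labels' protocols, slides were scanned on a GenePix 4000B, quantified with GenePix Pro 3.0 and analysed by the authors in BASE and GeneSpring. What the authors deposited is, for each spot, a normalized log2 ratio between both channels. Background correction, normalization, spot filter and ratio direction are not given in the sources used here. Of 265421 deposited values 4333 stood at a floor of -6.64 (a ratio of 0.01) and were treated as missing. Of 13872 probes 11480 had 1 gene symbol in the platform annotation, 50 several and 2342 none, and 11437 matched RefSeq by gene number.

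Arrays of a mouse were averaged to 16 mouse-level ratios. Probes with values in at least 3 of 4 mice of every group (7325) were fitted in R 4.3.3 by lmFit and eBayes of limma 3.58.1 (2.97 prior degrees of freedom) with 1 coefficient per group and 9 contrasts. P-values are 2-sided and adjusted by Benjamini and Hochberg over these probes, with a call at 0.05. Single values were compared by exact permutation in scipy 1.17.1.

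Named are Tnf, the list members called in any comparison, both receptors, and the 6 genes nearest to Tnf by each measure of likeness. A gene with several probes is given by the probe with values on the most arrays. Members and lists were chosen with earlier results of these data known. Alternatives changed the floor, the scaling, the filter, the dye orientation, the prior, the groups fitted and the mice.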

Additional observations from a re-analysis of the deposited data

Results flagged for a closer look

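Among the named pathway genes 164 groups of 4 mice were examined for 1 mouse far from the other 3, and 6 had a gap, as a share of the group's range, over Dixon's 95% critical value, where chance gives about 1 in 20 groups. No group of Tnf itself was among them. Ets2 stood at 1.34 in MyD88-/- E. coli mouse 4, with the others between 1.82 and 1.92. Furin stood at 0.315 in the same mouse, with the others between -0.056 and -0.021. Ikbkb stood at -0.281 in wild-type LPS mouse 4, with the others between 0.616 and 0.714. Nfkbie stood at 2.30 in wild-type LPS mouse 2 (others 2.81 to 2.90) and at 1.48 in wild-type E. coli mouse 1 (others 3.28 to 3.64). Tnfsf9 stood at 1.44 in wild-type E. coli mouse 4, with the others between 1.12 and 1.15. Why these mice stand apart was not tested.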

How the results depend on the processing

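The 4 Tnf responses kept their direction and their call under every alternative run, and no called result of Tnf, of the pathway members or of the near genes was reversed. With 1 mouse left out they ranged from 4.87 to 5.30 (wild-type LPS), 3.5 to 3.72 (MyD88-/- LPS), 5.98 to 6.32 (wild-type E. coli) and 3.83 to 4.11 (MyD88-/- E. coli). The Tnf genotype difference for LPS, not called as reported, was called over probes with values in all 4 mice (-1.52) and on swapped arrays (-2.49), and ranged from -1.71 to -1.28 with 1 mouse left out. That for E. coli lost its call on unswapped arrays (-1.84) and ranged from -2.39 to -2.05. The stimulus difference ranged from 0.86 to 1.30 in wild-type and from 0.21 to 0.52 in MyD88-/- cells, and the interaction from -0.97 to -0.53. With genotype and mouse number as a replicate block these were 1.06, 0.34 and -0.73, with adjusted p from limma of 0.873, 1.0 and 1.0. The labels do not say whether a mouse number is shared between the stimuli. With group means taken off, the same number gave correlations from -0.084 to 0.056 in wild-type and from -0.038 to 0.171 in MyD88-/- cells. Of 8 numbers 2 matched their own best. Such weak correlations cannot settle whether the samples are paired. Counts of called members over all pathway lists were 29, 29, 34 and 32 in the 4 responses. They were 16 in MyD88-/- LPS on swapped arrays, and 19 in MyD88-/- LPS and 17 in MyD88-/- E. coli with only the group itself fitted. Called in the genotype difference were 1 member for LPS, 0 on swapped arrays and 2 with a dye term and random block. For E. coli it was 2, then 4 with values in all 4 mice, 6 with the dye term and 1 with only the groups compared. With 1 mouse left out the 4 responses gave 29 to 32, 25 to 30, 31 to 35 and 24 to 33, the genotype differences 1 and 2 to 3, and the other comparisons 0. Of 127 calls of the 40 called pathway members 76 held under every alternative, and 143 of 3287 alternatives lost a call. For the 11 genes near Tnf, 61 calls and genotype differences had 1580 alternatives, of which 29 lost a call and 7 gained one. Over all probes, calls in wild-type LPS were 1247, 676 on swapped arrays and 375 with only that group fitted. In the same order they were 731, 301 and 255 for MyD88-/- LPS, 1554, 888 and 587 for wild-type E. coli and 789, 525 and 276 for MyD88-/- E. coli. For the LPS genotype difference 21 probes became 35 with values in all 4 mice, 12 on either dye orientation, 42 with the dye term and 4 with only the groups compared. For E. coli 55 became 86, 24 (unswapped), 189 and 23, and 36 with no filter. The wild-type stimulus difference, 0 as reported, gave 1 with no filter. Some of these fits used fewer arrays, mice or probes, and the causes of these shifts were not tested. The interaction was not run with only the groups compared, since it uses all 4.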

Other observations

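Tnf was set beside the strongest responders as a description. Of the 20 probes with the highest ratios in wild-type LPS, Tnf's among them, 17 had a genotype difference below 0, with a range from -3.84 to 0.65 and a median of -1.71, and 2 were called. Of these, 10 were lower than Tnf. Of the 20 with the highest ratios in wild-type E. coli all 20 were below 0, from -5.80 to -0.17 with a median of -2.36, 11 were called, and 10 were lower than Tnf. Choosing them on wild-type ratios favours differences below 0. Over all probes the median genotype difference was 0.01 for LPS and 0.02 for E. coli.

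Of the 50 probes with the highest mean over the 16 ratios, 49 were not Tnf's. Their swapped minus unswapped difference had a median of -0.10 in wild-type and -0.42 in MyD88-/- cells, and its median size over pairs was 0.80. For 4 of the 49 the wild-type minus MyD88-/- value was at least as large as for Tnf (1.28).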
